A study of Mus musculus with 12 samples.

Results

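The Hox genes of the a, b, c and d clusters were followed in mouse hematopoietic stem cells (HSCs), the source of every blood lineage, on 12 arrays. Members were all genes whose symbol was Hox, a cluster letter and a paralog number, on a probe set with a single gene symbol. This gave 37 of the 19935 genes measured. Each of the 37 genes had 1 probe set, so no choice between probe sets was needed.

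Hox genes encode homeodomain transcription factors. Within each cluster the genes lie in a row and are numbered by their place in it, from the anterior end, which patterns the hindbrain, to the posterior end, which patterns limbs, genitals and tail. Genes with the same number in different clusters are paralogs. In blood, Hox genes are known from stem and progenitor cells, where they act with the TALE cofactors of the MEIS and PBX families, are kept active by MLL complexes and are silenced by Polycomb complexes when cells mature. Hoxa9 and Meis1 together are a well-known driver of leukemia.

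The mice were 2 to 3 months old and were injected under the skin with corn oil (100 µL) that held either no hormone or 2 µg of estradiol, an estrogen (E2). Males and females were each given either injection, which makes 4 groups, with 3 arrays from 3 mice in each. The sort took lineage- cells that were CD150+ CD48- c-kit+ Sca-1+, in lots of 5000 to 7000 cells, and their RNA was amplified before labelling. The strain and the length of treatment were not stated in the labels. The array reports a linear intensity per probe set. Array medians lay between 143 and 159. Precision is limited by having 3 arrays per group.

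All 12 measured markers of HSCs read above the level filter described below. Cd48, which the sort selects against, read 62.8 to 116 and passed it on 0 arrays. Of 5 B cell markers, Cd79b passed on 12 arrays, Vpreb1 on 2 and Cd79a, Ebf1 and Pax5 on 0. Of 5 monocyte and macrophage markers, Cd68 passed on 12 arrays, Ccr2 on 1 and Csf1r, Adgre1 and Cx3cr1 on 0. Of 9 granulocyte markers 8 had a mean above the filter, S100a8 among them at 1561 to 6005. The female arrays read 3417 to 3897 for Xist, the RNA of X inactivation, and the male arrays 61.9 to 73.0, so all 12 matched their sex labels.

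The clusters also hold miRNA genes, which target Hox transcripts. Mir196b lies between Hoxa9 and Hoxa10, Mir196a-1 between Hoxb9 and Hoxb13, and Mir10a and Mir10b lie in the b and d clusters. Their mature sequences, from RefSeq (GRCm38.p6), are shown because the families share a seed between clusters, with the seed (bases 2 to 8) in capitals:
miR-196b-5p, chr6:52230129-52230150, minus strand: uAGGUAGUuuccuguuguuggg
miR-196a-5p, chr11:96265187-96265208, plus strand: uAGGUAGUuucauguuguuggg
miR-10a-5p, chr11:96317186-96317208, plus strand: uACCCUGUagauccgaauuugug
miR-10b-5p, chr2:74726074-74726096, plus strand: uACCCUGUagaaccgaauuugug
Counted from 1 at the 5′ end, miR-196b and miR-196a differ by C12A, and miR-10a and miR-10b by U12A.

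Hoxa2, which patterns the hindbrain and branchial arches, turned out to be the member that passed the test for E2 below. The 250 bases before its start, chr6:52164832-52165081 on the minus strand (RefSeq, GRCm38.p6), are shown for that reason. Capitals mark a match to the PBX-HOX motif TGATNNAT, which lies on the opposite strand and begins 111 bases before the start:
Hoxa2 promoter: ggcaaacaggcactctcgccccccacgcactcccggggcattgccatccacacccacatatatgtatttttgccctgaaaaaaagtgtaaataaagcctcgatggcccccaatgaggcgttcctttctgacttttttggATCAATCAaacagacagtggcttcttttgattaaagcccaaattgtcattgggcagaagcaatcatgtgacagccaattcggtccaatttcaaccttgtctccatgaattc
The promoter table had entries for 21 of the 37 members. On either strand, TGATNNAT occurred in a window of this length in 8.81% of 27025 genes and in 3 of these 21 members. The palindromic estrogen response element GGTCANNNTGACC occurred in 0.067% of genes and in 0 of the 21. Its single arm GGTCA, which the palindrome contains, occurred in 38.4% of genes and in 11 of the 21. Of the 14 members above the level filter described below, 9 had an entry, and 3 of these (Hoxa9, Hoxb4 and Hoxd1) held the arm, while Hoxa2 did not.

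The deposited values come without a background level, so the median of all genes, an intensity of 182, served as the level filter. Olfactory receptor genes, assumed here to be mostly unexpressed in HSCs, gave a second reference. The 95th percentile of 1015 such genes was 147, and 2.27% of them lay above the filter. Being a median, the filter is passed by 9967 of the 19935 genes by construction. Of the 37 Hox genes, 14 had a mean above the filter and 16 above the olfactory percentile, Hoxb7 and Hoxc5 being the additional ones. Signal below these marks is a bound and does not show that a gene is silent. Probe sets differ in how brightly they bind, so intensities of different genes were not ranked against each other.

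The a cluster held 8 of 10 measured genes above the filter, the b cluster 5 of 9, the c cluster 0 of 9 and the d cluster 1 of 9. By place in the cluster, 5 of 7 anterior genes (paralogs 1 to 3) passed, 7 of 14 central genes (4 to 8) and 2 of 16 posterior genes (9 to 13). In the a cluster the run above the filter was unbroken from Hoxa2 to Hoxa10 and ended there, with Hoxa11 at a mean of 83.8 and Hoxa13 at 66.4. In the b cluster it ran from Hoxb2 to Hoxb6, with Hoxb1 at 133 on one side and Hoxb7 at 160 on the other. Hoxa9 and Hoxa10 were the posterior members above the filter. This map depends on the cut. At the 75th percentile of genes (415) only Hoxa5, Hoxa7, Hoxa9 and Hoxb5 passed, so the a run was broken. The 25th percentile (93.8) lies below the olfactory mark. There Hoxc4, Hoxc5, Hoxc6 and Hoxc13 also passed, as did Hoxd3, Hoxd4, Hoxd10, Hoxd11 and Hoxd12.

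**Figure D1:**
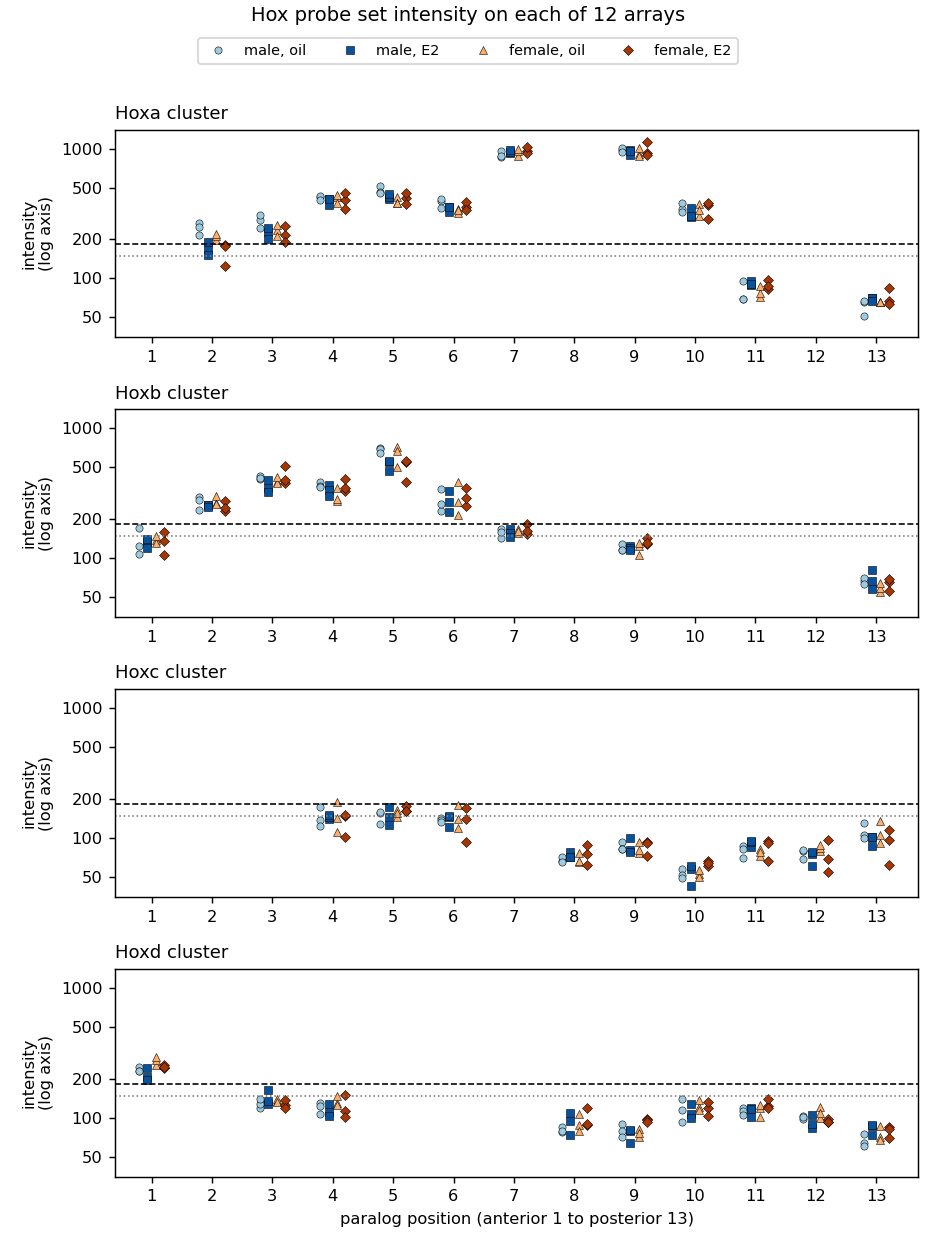
Intensity of each measured Hox probe set on each of 12 arrays (log axis), by cluster and paralog position, with the level filter (182, dashed) and the 95th percentile of olfactory receptor genes (147, dotted). By mean over the arrays, the a cluster stays above the filter from Hoxa2 to Hoxa10 and the b cluster from Hoxb2 to Hoxb6. The c cluster has no member whose mean passes, and Hoxa2 passes on 7 of the 12 arrays.

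Among anterior members, Hoxa3, a gene of thymus and parathyroid development, read between 191 and 308 with a median of 239. Hoxb2, another hindbrain gene, read 231 to 302 (median 260), and Hoxb3 read 326 to 511 (median 397). Hoxd1 read 197 to 293 (median 244) and was the 1 gene of the d cluster above the filter, on all 12 arrays. Hoxa2 read 124 to 265 with a mean of 192, close to the filter, and passed the filter on 7 of 12 arrays. The other 13 passed it on all 12.

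Among central members, Hoxa4 read 343 to 458 (median 405), Hoxa5, a gene of lung and rib patterning, 372 to 515 (median 424), and Hoxa6 316 to 407 (median 349). Hoxa7 read 865 to 1025 (median 949). In the b cluster, Hoxb4, known for expanding HSCs when it is overexpressed, read 277 to 406 (median 349). Hoxb5, known as a marker of long-term HSCs, read 389 to 714 (median 561), and Hoxb6 read 213 to 389 (median 273). Of the posterior members, Hoxa9, which supports HSC self-renewal, read 873 to 1131 (median 947) and Hoxa10 read 285 to 381 (median 338).

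The other 23 genes had means between 55.4 and 160. Hoxb7 passed the filter on 1 array, as did Hoxc4, whose mean was 141. Hoxc5 and Hoxc6 had means of 153 and 137. Hoxc8, the last central gene of that cluster, lay at 71.0, and the posterior genes Hoxc9, Hoxc10, Hoxc11, Hoxc12 and Hoxc13 at 84.9, 55.4, 82.3, 75.3 and 101. Hoxd3, Hoxd4 and Hoxd8 lay at 133, 121 and 89.7. The posterior d genes Hoxd9, Hoxd10, Hoxd11, Hoxd12 and Hoxd13, known from limb development, lay at 80.8, 116, 116, 98.9 and 75.4. Hoxb9 and Hoxb13 lay at 123 and 64.1.

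Annotated gene spans overlap within the clusters, Hoxa3 with Hoxa4, Hoxa5 and Hoxa6, Hoxb3 with Hoxb4, Hoxd3 with Hoxd4 and Hoxd10 with Hoxd11. Signals within these pairs cannot be fully told apart. Around the a cluster, the flanking gene Skap2 read 800 to 963 and passed on all 12 arrays, while Evx1, next to Hoxa13, passed on 0. Of 10 noncoding genes of the clusters chosen by name, Mir196b alone had a mean above the filter, with a range of 257 to 396 and a median of 356. Its neighbours in the row, Hoxa9 and Hoxa10, were both above it. Mir196a-1, Mir196a-2, Mir10a and Mir10b passed on 0 arrays, as did the long noncoding RNA genes Hottip, Haglr, Hoxaas2 and Hoxd3os1, and Mir615 passed on 2. A further noncoding gene between Hoxa3 and Hoxa4, 5730596B20Rik, lay outside that choice and had a mean of 164, above the filter on 4 arrays. The probe set of a miRNA gene can read the primary transcript, so these values are not taken as levels of the mature miRNA.

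The comparison of E2 with oil asks whether estrogen moves this set of genes. Averaged over the sexes, E2 lowered Hoxa2 alone among the 14 Hox genes above the filter. Hoxb5, the marker of long-term HSCs, had the next largest difference, at -0.35 on the log2 scale, and missed the threshold. Hoxa9 and Hoxa7 differed by 0.01 and 0.06. Hoxb4 also averaged 0.06, from -0.14 in males and 0.25 in females. Tests were made with limma's moderated statistics on log2 of the intensity plus 1, with Benjamini-Hochberg adjustment over 9967 genes above the filter, and an adjusted p under 0.05 counted as a call.

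Hoxa2 read 265, 249 and 216 in oil-treated males and 169, 192 and 151 in E2-treated males. In females it read 198, 211 and 219 under oil and 180, 124 and 177 under E2. Every E2 array lay below every oil array of the same sex, which held for 4.88% of all genes tested, while 2.32% lay above. The group means ± SD (n = 3) were 243 ± 24.9 and 170 ± 20.6 in males and 209 ± 10.7 and 160 ± 31.9 in females. The averaged log2 difference was -0.46 ± 0.10 (SE; 95% interval -0.67 to -0.24; limma adjusted p = 0.0126). Both E2 means lay below the filter of 182, so the gene passed the filter through its oil arrays, and the size of the decrease is approximate. Without any filter on level it was called as well (adjusted p = 0.0322 over 19935 genes).

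Hoxb5 read 706, 694 and 648 in oil-treated males and 547, 558 and 470 with E2, which do not overlap. In females it read 505, 714 and 667 under oil and 389, 554 and 565 with E2, where 1 oil array lay among the E2 arrays. Its averaged difference was -0.35 ± 0.11 (95% interval -0.58 to -0.12), and its adjusted p of 0.0563 missed the threshold in limma's test. It passed when the arrays were centred on their medians (adjusted p = 0.0406), with trend and robust estimation (0.0400), and without female oil replicate 1 (0.0226), female E2 replicate 2 (0.0471) or female E2 replicate 3 (0.0331). Over all the alternatives its adjusted p ran from 0.0226 to 0.143.

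Hoxa3 read 243, 284 and 308 in oil-treated males and 228, 201 and 245 with E2. In females it read 235, 258 and 211 under oil and 217, 191 and 255 with E2. The groups overlapped in both sexes, and the averaged difference was -0.20 ± 0.09 (95% interval -0.39 to -0.01; limma adjusted p = 0.186).

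**Figure D2:**
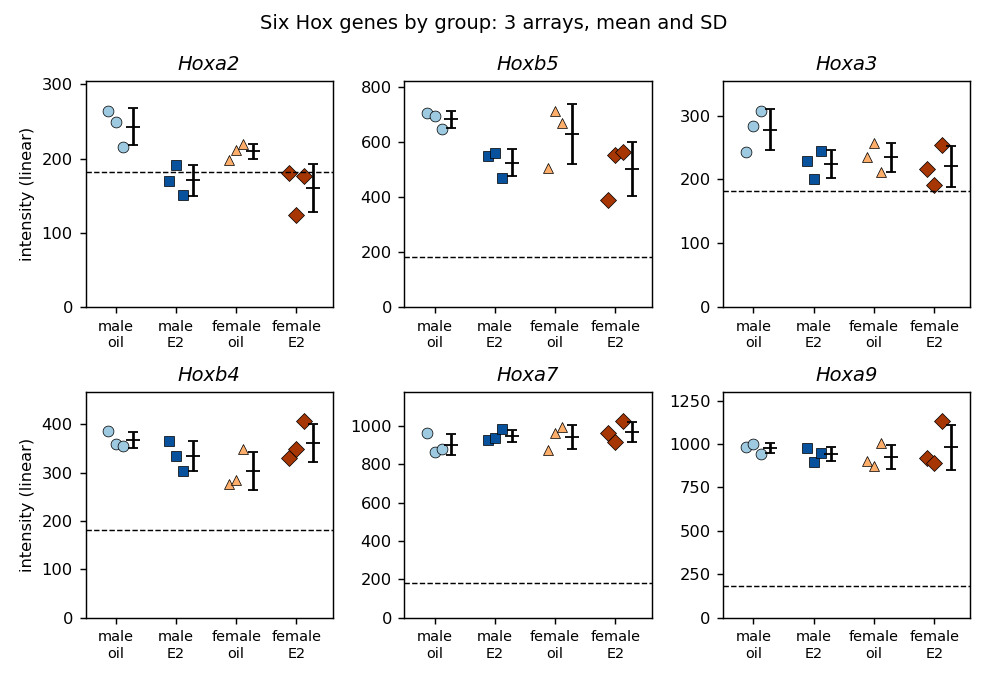
Intensity (linear axis from 0) of 6 Hox genes on each array of the 4 groups, with the group mean and SD (n = 3) beside the points and the level filter of 182 as a dashed line. Hoxa2 is lower on every E2 array than on every oil array of the same sex, whereas Hoxa7 and Hoxa9 overlap in both sexes.

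Hoxa9 read 982, 1002 and 945 in oil-treated males, 977, 898 and 950 in E2-treated males, 902, 873 and 1005 in oil-treated females and 920, 892 and 1131 in E2-treated females. The 4 groups overlapped, and the averaged difference was 0.01 ± 0.07 with a 95% interval of -0.14 to 0.16 (limma adjusted p = 0.937). Hoxa7 read 965, 865 and 878, then 927, 936 and 983, in males, and 875, 962 and 993, then 962, 918 and 1025, in females, oil before E2. Its averaged difference was 0.06 ± 0.06, with an interval of -0.07 to 0.18 (limma adjusted p = 0.620). Hoxb4 averaged 0.06 ± 0.08 (interval -0.11 to 0.23; limma adjusted p = 0.711).

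Among the other central and posterior genes of the a cluster, the averaged difference was -0.08 ± 0.07 for Hoxa4 (95% interval -0.24 to 0.08; limma adjusted p = 0.582) and -0.05 ± 0.07 for Hoxa5 (-0.20 to 0.09; adjusted p = 0.673). It was -0.02 ± 0.06 for Hoxa6 (-0.16 to 0.12; adjusted p = 0.879) and -0.06 ± 0.09 for Hoxa10 (-0.24 to 0.12; adjusted p = 0.724). In the b cluster, Hoxb2 averaged -0.11 ± 0.07 (-0.27 to 0.04; adjusted p = 0.369) and Hoxb3 -0.06 ± 0.08 (-0.23 to 0.11; adjusted p = 0.702). The interval of Hoxb6, -0.29 to 0.35 around 0.03 ± 0.15, was the widest of the 14 (adjusted p = 0.937). Hoxd1 averaged -0.14 ± 0.07 (-0.28 to 0.00; adjusted p = 0.211), and its female E2 arrays (241, 255 and 248) all lay below its female oil arrays (257, 277 and 292).

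In that averaged comparison, 1 of the 14 Hox genes above the filter was called, against 8.9% of all genes tested. The call was downward, as for 5.78% of genes, and 3.12% were called higher. At an unadjusted p under 0.05, 3 of the 14 were lower and 0 higher, while 14.1% and 10.5% of all genes were lower and higher. The median log2 difference of the 14 was -0.06, against -0.01 over all 9967 genes, and 10 of the 14 lay below 0, as did 53.3% of all genes. The 95% interval stayed within 1 on the log2 scale on either side of 0 for all 14, and within 0.5 for 12 of them.

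Of the 23 dimmer members, 0 were called for the averaged effect in the limma fit without a filter, where 2.85% of genes were called. The smallest p among them belonged to Hoxa11, at 0.21 ± 0.09 (adjusted p = 0.269). An unadjusted p under 0.05 was found for 2 of the 23, but the share of all genes at that threshold in this fit was not counted. Their averaged differences ran from -0.25 to 0.21.

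**Figure D3:**
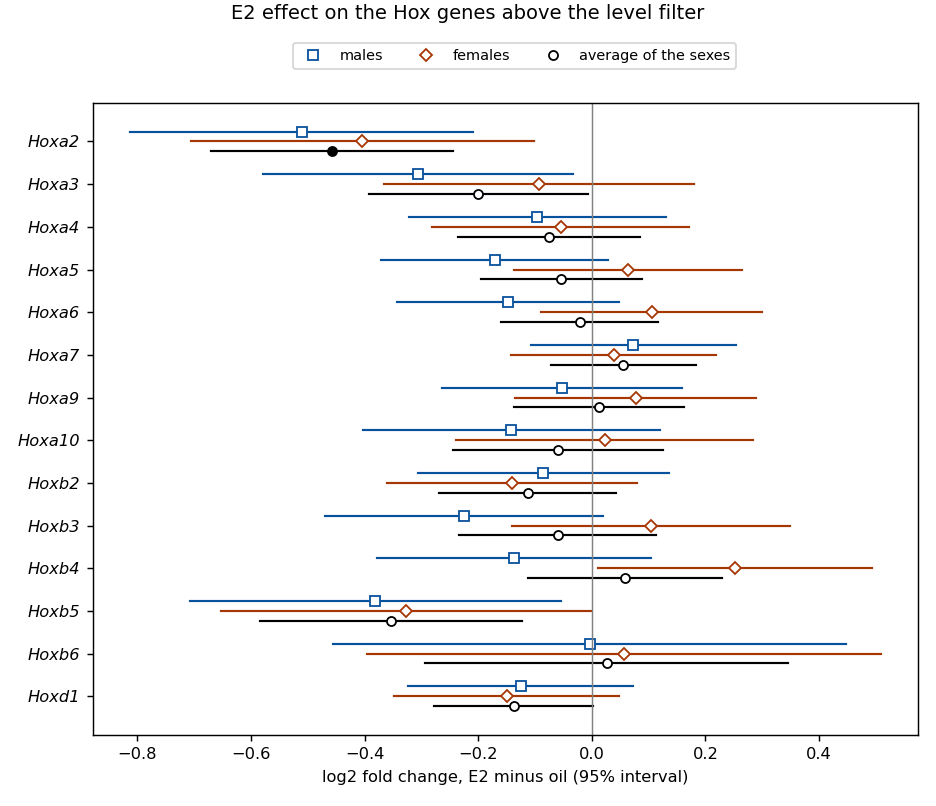
Log2 fold change of E2 against oil, with its 95% interval, for the 14 Hox genes above the level filter, in either sex alone and as the average of both. The filled symbol marks the only call, Hoxa2 on average at -0.46, and the intervals of the other averaged values end between -0.58 and 0.35.

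In males alone, 0 of the 14 Hox genes were called by limma, against 1.43% of all genes. At an unadjusted p under 0.05, 3 were lower (Hoxa2, Hoxb5 and Hoxa3) and 0 higher, against 7.26% lower and 7.48% higher over all genes. Their log2 differences were -0.51 ± 0.14, -0.38 ± 0.15 and -0.31 ± 0.13, with adjusted p of 0.104, 0.257 and 0.278. Of the 14, 13 lay below 0 and Hoxa7 above it at 0.07, and the median was -0.14, whereas 4985 of the 9967 genes tested lay below 0. The E2 arrays of Hoxa2, Hoxa5, Hoxb3 and Hoxb5 all lay below the male oil arrays, as was so for 13% of all genes, and 0 of the 14 lay above them without overlap, against 13.6%. The male count was 1 without female E2 replicate 2, with array weights also 1, and 2 when only the male arrays were fitted, where Hoxa2 and Hoxb5 passed.

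Averaged over the 14 genes, the log2 level of the male E2 arrays lay 0.10, 0.18 and 0.22 below the mean of the male oil arrays. The female oil arrays were spread between 0.18 below and 0.00, and the female E2 arrays lay 0.15, 0.15 and 0.05 below it. The female groups overlapped in this mean, and 1 of the female oil arrays lay within the range of the male E2 arrays.

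In females alone, 0 of the 14 were called by limma, against 3.56% of all genes. At an unadjusted p under 0.05, 2 were lower (Hoxa2 and Hoxb5) and 1 higher (Hoxb4), against 12.5% and 6.12% of all genes. Hoxa2 differed by -0.40 ± 0.14 and Hoxb5 by -0.33 ± 0.15, with adjusted p of 0.133 and 0.268. Without female E2 replicate 2 the difference in Hoxa2 was -0.23, and without female E2 replicate 1 that in Hoxb5 was -0.15. The arrays did not overlap for Hoxa2 and Hoxd1, both lower, and 0 were higher without overlap, against 13.1% lower and 6.95% higher over all genes. Of the 14, 6 lay below 0, and their median was 0.03, against -0.02 over all genes. This count depended on single arrays and on scaling. It was 9 without female oil replicate 1, 9 without female E2 replicate 3 and 8 with each array centred on its median.

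Hoxb4 read 386, 360 and 354 in oil-treated males and 365, 334 and 303 with E2. In females it read 277, 285 and 349 under oil and 329, 348 and 406 with E2. The arrays overlapped in both sexes, with the means lower with E2 in males and higher in females. The female difference was 0.25 ± 0.11 (limma adjusted p = 0.244), or 0.17 without female E2 replicate 3, and the male one -0.14 ± 0.11 (limma adjusted p = 0.617).

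The difference between the sexes in their response was tested directly as the female minus the male log2 difference. In limma's test 0 of the 14 Hox genes were called, against 0.01% of all genes, and 1 had an unadjusted p under 0.05, against 2.17% of all genes higher and 3.2% lower. That gene was Hoxb4, at 0.39 ± 0.16 (95% interval 0.05 to 0.73; adjusted p = 0.907). Hoxb3 followed at 0.33 ± 0.16 and Hoxa6 at 0.25 ± 0.13. For Hoxa2 the sexes differed by 0.11 with an interval of -0.32 to 0.53, so a sizeable difference in either direction would not have been detected.

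Between the sexes under oil, 0 of the 14 were called by limma, against 0.0401% of all genes. At an unadjusted p under 0.05, 3 were lower in females and 1 higher, against 2.6% and 2.39% of all genes. Hoxa5 read 425, 383 and 379 in oil-treated females and 515, 465 and 458 in oil-treated males, which do not overlap (-0.28 ± 0.09; adjusted p = 0.864). Hoxb4 differed by -0.28 ± 0.11 and Hoxa6 by -0.20 ± 0.09, and Hoxd1 was higher in females by 0.23 ± 0.09. In all 4 the arrays of the sexes did not overlap, as was so for 7.29% of all genes lower and 5.65% higher in females. The same oil arrays enter the E2 comparisons of each sex, so these values and the E2 differences above are not independent. Under E2, 0 of the 14 were called by limma, against 0.01% of all genes, and 2 had an unadjusted p under 0.05, Hoxb3 at 0.25 and Hoxd1 at 0.21, both with an adjusted p of 0.534. At that threshold 2.65% of all genes were higher in females and 6.39% lower. The arrays of the sexes overlapped under E2 for all 14, whereas 4.1% of all genes were higher and 8.72% lower without overlap.

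Within groups, the spread of Hoxa7 was 0.08 (SD of log2 values), lower than that of all but 9.02% of genes tested. Hoxa6, Hoxd1 and Hoxa5 followed at 0.10 each. The spread of Hoxa2 and Hoxb5 was larger, at 0.19 and 0.21. Hoxb6 had the widest, at 0.31, above 97.7% of genes. The median of the 14 was 0.13 and that of all genes 0.14.

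The TALE homeobox genes encode the cofactors with which HOX proteins bind DNA. Of 10 measured, 7 were above the filter, and averaged over the sexes 1 was called lower and 0 higher, with a median difference of -0.08. Over all genes tested, 5.78% were called lower and 3.12% higher in that comparison. The same shares apply to the lists below. The lower one was Pbx4, which read 193 to 349 (median 295) and differed by -0.37 ± 0.08 (limma adjusted p = 0.0150). Meis1, the main HOXA9 partner in HSCs, read 1666 to 2051 (median 1855) and differed by -0.11 ± 0.05 (limma adjusted p = 0.220). Pbx3 and Pbx2 differed by -0.04 and -0.07. Meis2, Meis3 and Pknox2 passed the filter on 0 arrays.

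All 16 genes of the MLL complexes and their partners were above the filter. On average 2 of them were called lower and 0 higher, against 5.78% and 3.12% of all genes, with a median difference of -0.03. Kmt2a, the MLL methyltransferase that maintains Hox transcription, read 1345 to 1734 (median 1555) and differed by -0.19 ± 0.05 (limma adjusted p = 0.0422). Kdm6b, which removes the Polycomb mark, differed by -0.31 ± 0.09 (limma adjusted p = 0.0496). Neither call was stable, since Kmt2a missed the threshold in 13 of 21 alternatives and Kdm6b in 14, with adjusted p up to 0.115 and 0.124 and the difference below 0 throughout. Of 15 Polycomb genes measured, 14 were above the filter and 0 were called in limma's test of the averaged effect, with a median of -0.02. Ezh2, the Polycomb methyltransferase, differed by 0.19 ± 0.08 (limma adjusted p = 0.154), and Bmi1, a Polycomb protein needed for HSC self-renewal, by -0.05 ± 0.09 (limma adjusted p = 0.799).

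Among upstream regulators, the caudal genes Cdx1 and Cdx4 passed the filter on 0 arrays and Cdx2 on 1. The retinoic acid receptor genes Rara and Rarg and the insulator gene Ctcf were above it, and 0 of these 3 were called in limma's test. Rara, at -0.29 ± 0.09, had an adjusted p of 0.0633.

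Of 12 reported targets of HOXA9 and MEIS1, 10 were above the filter, and averaged over the sexes 5 were called lower, 2 higher and 3 neither way, with a median of -0.21. This list was compiled with earlier results on these arrays known, so its counts are no independent evidence. Flt3, a cytokine receptor of multipotent progenitors, read 113 to 334 and fell by 1.10 ± 0.11 (limma adjusted p = 8.17e-05). It passed the filter on 7 arrays, and its E2 means of 145 in males and 137 in females lay below both level marks, so the size of this decrease is approximate. Cdk6, a cell cycle kinase, fell by 0.67 ± 0.10 (adjusted p = 0.00106) and Sox4, a transcription factor of progenitors, by 0.64 ± 0.08 (adjusted p = 2.44e-04). Cd34 and Erg fell by 0.29 and 0.21, and missed the threshold in 5 and 6 of 21 alternatives, with adjusted p up to 0.0681 and 0.0752. Pim1, a survival kinase, rose by 0.81 ± 0.14 (adjusted p = 0.00360) and Igf1, whose female oil mean of 145 also lay below both marks, by 0.32 ± 0.06. These genes have many other regulators. Hoxa9 and Meis1 themselves were not called, and whether they had a part in these differences was not tested.

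Of 9 other homeobox genes of blood cells above the filter, 1 was called higher and 2 lower on average, with a median of -0.13. Cux1 rose by 0.42 ± 0.06 (limma adjusted p = 0.00122), with differences of 0.71 in males and 0.14 in females. Satb1, with E2 means of 176 and 163 below the filter, and Zhx2 fell by 0.35 each, and missed the threshold in 9 and 12 of 21 alternatives, with adjusted p up to 0.0769 and 0.126. Of 9 neighbours of the clusters above the filter, Cbx5, a heterochromatin protein gene beside the c cluster, rose by 0.33 ± 0.08 (limma adjusted p = 0.0189, and up to 0.0539 over the alternatives), and 0 fell. Mir196b differed by -0.19 ± 0.08 (limma adjusted p = 0.166).

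**Figure D4:**
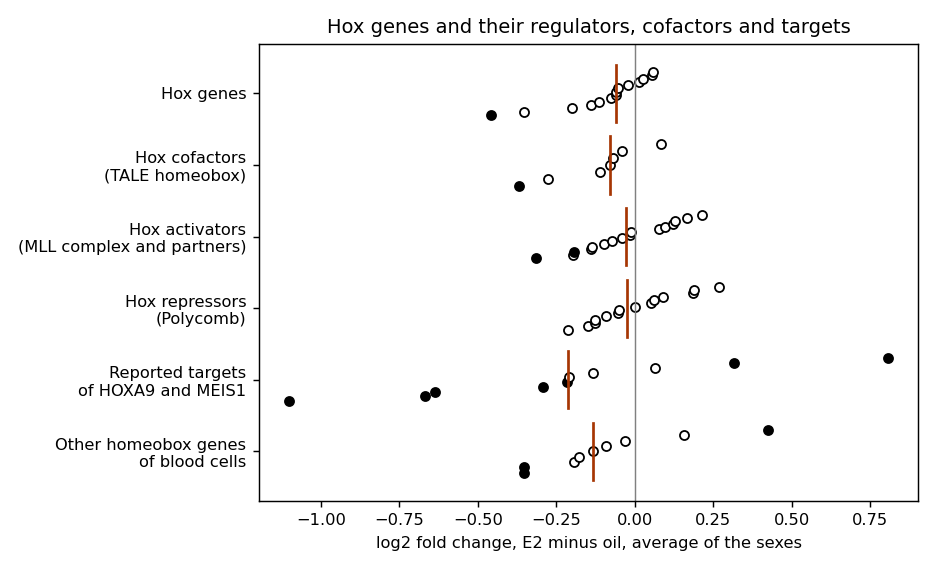
Log2 fold change of E2 against oil averaged over the sexes for the Hox genes above the level filter and for 5 lists of related genes, each point 1 gene (filled where called) and the vertical bar the median of the list. The Hox median is -0.06 with 1 call, and the median of the reported HOXA9 and MEIS1 targets is -0.21 with 7 calls.

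Some genes of several marker lists were called with E2 beside the Hoxa2 result. Over all genes tested, 5.78% were called lower and 3.12% higher on average. Of 12 HSC markers above the filter, 4 were called lower on average (Kit, Procr, Gata2 and Esam), 0 higher and 8 neither way. Their summed intensity was 16593 to 16753 in oil-treated males, 14347 to 15248 in E2-treated males, 14882 to 16233 in oil-treated females and 13161 to 15099 in E2-treated females. Of 5 progenitor markers, 3 were above the filter and all 3 were called lower (Flt3, Cd34 and Satb1), with sums of 2437 to 2888, 2095 to 2160, 2460 to 2971 and 1900 to 2202 in the same order. The E2 means of Flt3 and Satb1 lay below the filter, and Cd34 and Satb1 missed the threshold in 5 and 9 of 21 alternatives. Of 6 megakaryocyte markers, 5 were above the filter, 3 were called lower (Pf4, Gp5 and Itga2b) and 1 higher (Gp9), with sums of 3143 to 3576, 2611 to 2899, 3070 to 3393 and 2009 to 2835. The T and NK cell list summed to 1170 to 1378, 836 to 930, 1115 to 1325 and 917 to 959, with Nkg7 called lower. Nkg7 alone averaged 573 and 165 in males and 495 and 173 in females, oil before E2. Both E2 means lay below the filter, so the size of that decrease is approximate. Cd3e and Cd4 were not called. Of its 6 genes, Cd3e passed the filter on 12 arrays, Cd4 on 10, Nkg7 on 8, and Cd3g, Cd8a and Klrb1c on 0. The B cell list summed to 807 to 1140, 684 to 855, 920 to 993 and 671 to 748, with Cd79b called lower. Calls in the other direction were Col1a2 in the stroma and endothelium list (0.90; adjusted p = 0.00796) and Tfrc in the erythroid list (0.36; adjusted p = 0.0491, missed in 14 of 21 alternatives). The oil mean of Col1a2, 149 in males and 158 in females, lay below the filter. In the same order of groups, the stroma list of 7 genes summed to 1179 to 1458, 1215 to 1426, 1140 to 1289 and 1102 to 1599, and the 4 erythroid genes to 620 to 1015, 639 to 903, 631 to 1324 and 863 to 1320. The 5 monocyte and macrophage genes summed to 634 to 772, 622 to 854, 655 to 659 and 760 to 971, with 0 called (limma; its 1 gene above the filter, Cd68, had an adjusted p of 0.637). The sums of 9 granulocyte genes overlapped between oil and E2 in both sexes, at 7839 to 16788, 7268 to 13248, 9369 to 21483 and 5357 to 14607, with Prtn3 called lower, though not in 10 of 21 alternatives. The part of these shifts in the Hox results was not tested. In sorted cells, fewer cells of a kind and less RNA per cell cannot be told apart.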

How the data were processed

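The deposited values are linear probe set intensities from Affymetrix Mouse Gene 1.0 ST arrays, 35474 probe sets on 12 arrays. How the authors summarised, background-corrected and normalized them is not given in the sources used here. RNA was amplified with NuGEN reagents, per the labels' protocols. Probe sets with 1 symbol in the platform annotation, 21780 in all, gave 19935 genes, each taken from its brightest probe set. The 1605 with several symbols and 12089 with none were left out. After adding 1, intensities were put on the log2 scale. Genes with a mean above the median of genes (log2 7.52) numbered 9967.

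In limma 3.58.1 (R 4.3.3), 1 model over all 12 arrays gave each group its own mean (8 residual and 5.38 prior degrees of freedom), with Benjamini-Hochberg adjustment within each of 6 contrasts. The steps were tested on simulated data. Motifs were searched with Python 3.11.15 on both strands of RefSeq promoter windows of 250 bases.

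All members were named, with full statistics for those above the filter. From the other lists, called genes and Meis1, Kmt2a, Ezh2, Bmi1, Cdk6 and Flt3 were named, and further genes were picked with their values known. The members and lists were chosen with earlier results of these data known. Alternatives were other scalings, offsets, filters, probe set rules, variance models and thresholds, a replicate block, a fit of the compared groups alone and each array left out in turn.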

Additional observations from a re-analysis of the deposited data

Results flagged for a closer look

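The female minus male response to E2 was 0.39 on the log2 scale for Hoxb4 and 0.25 for Hoxa6. Both genes were flagged because every E2 array lay below the oil mean in males and above it in females. Some margins were small. Hoxb4 read 365 on male E2 replicate 1, against a male oil mean of 367. Hoxa6 read 333 on female E2 replicate 3, against a female oil mean of 332. The test of the difference itself did not pass after adjustment over all genes in either case (limma adjusted p = 0.907 for Hoxb4 and 0.953 for Hoxa6). Hoxb4 ranged from 0.30 to 0.49 and Hoxa6 from 0.17 to 0.32 over the alternatives, and neither was called under any of them.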

How the results depend on the processing

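The lower level of Hoxa2 under E2, averaged over the sexes, was called in all 22 alternatives, between -0.51 and -0.37, with adjusted p from 0.00704 to 0.0364, and with a replicate block at -0.46 (adjusted p = 0.0231). The block changed no other Hox call. Same-numbered arrays did not deviate together (18 pairs, r from -0.26 to 0.20, 4 above 0.1), and 1 of 12 arrays correlated best with its own number. The number of Hox genes called in that comparison was 2 with median centring, with trend and robust estimation and at an adjusted p under 0.1, and 1 to 2 when single arrays were left out, Hoxb5 being the added gene. In males it was 1 with array weights, 2 when the compared groups were fitted alone and 0 to 1 when single arrays were left out. In females, between the sexes and for the difference in response it was 0 under every alternative. The number of Hox genes above the filter was 26 at the 25th percentile of genes and 4 at the 75th, and 14 whichever array was left out. When single arrays were left out, some uncalled averaged values close to 0 changed sign. Hoxa10 ran from -0.0992 to 0.0056, Hoxa6 from -0.0565 to 0.0032, Hoxa9 from -0.0409 to 0.0446 and Hoxb6 from -0.0754 to 0.141, and Hoxa3 in females ran from -0.2014 to 0.0068. The cause was not tested. Of the list genes named with a call, Pbx4, Flt3, Cdk6, Sox4, Pim1, Igf1 and Cux1 were called in all 21 alternatives run on them. Signal close to background limits what can be said of Hoxa2 under E2 and of the 23 dimmer members.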
